A study of Mus musculus with 30 samples.

Results

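Transposon insertions were described at 4 loci of the mouse urea cycle, namely those of Cps1, Ass1, Asl and Arg1. Each locus was a window of the mouse build GRCm39 set by coordinates, and the windows were chosen with earlier results of these data known. The windows were chr1:67100001-67350000 for Cps1, chr2:31300001-31500000 for Ass1, chr5:129950001-130100000 for Asl and chr10:24700001-24900000 for Arg1. They are 250 kb, 200 kb, 150 kb and 200 kb long. Together they held 2268 of the 2181704 site records on the nuclear chromosomes, and formed 4 of the 13611 regions into which the genome was divided.

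Site records were obtained from Fah knockout animals, in which the final step of tyrosine degradation is missing and which model the disease tyrosinemia type I (TT1). All animals of both groups carried the knockout and received a transposon gene therapy vector in vivo, either in the piggyBac (PB) or in the Sleeping Beauty (SB) system, and no untreated liver was analysed here. Insertion sites were read from liver genomic DNA by streptavidin-based enrichment sequencing (SBE-seq), an amplification from the transposon end into the neighbouring genome. The PB group had 17 livers with 16364 to 124238 nuclear sites each, and the SB group had 13 livers with 4893 to 120219. Age, sex, vector dose, the promoter in the vector and the length of the monitoring period are not given in the sources used here. Each liver was taken as 1 replicate.

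The urea cycle turns ammonia into urea and runs mainly in hepatocytes. Cps1, carbamoyl phosphate synthetase 1, makes carbamoyl phosphate from ammonia in mitochondria. Ass1, argininosuccinate synthase, joins citrulline to aspartate, Asl, argininosuccinate lyase, splits the product into arginine and fumarate, and Arg1, arginase 1, releases urea. PB inserts at TTAA and is known to favour open, transcribed chromatin, whereas SB inserts at TA with a weaker preference for genes. In Fah knockout livers, hepatocytes that regain the enzyme can outgrow the others, so sites are read from livers in which such cells may have expanded. Neither chromatin nor gene expression was measured in these livers.

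A promoter of the mouse reference was at hand for 1 of the 4 loci, Ass1, and is shown because the sites described here depend on the motifs TTAA and TA. It is the RefSeq sequence from 250 bases before to 50 bases after the gene's start, at chr2:31470020-31470319 on the plus strand of GRCm38.p6. Every TA is in capitals.
Ass1: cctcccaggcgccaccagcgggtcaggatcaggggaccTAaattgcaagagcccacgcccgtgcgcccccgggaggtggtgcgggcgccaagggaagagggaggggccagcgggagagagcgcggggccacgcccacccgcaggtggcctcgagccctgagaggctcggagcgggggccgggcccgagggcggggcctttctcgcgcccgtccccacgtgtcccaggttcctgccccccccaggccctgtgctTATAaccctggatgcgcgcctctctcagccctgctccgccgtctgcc
These 300 bases hold no TTAA and 3 TA. Both motifs read the same on the 2 strands, and every TTAA contains a TA. Of 32851 reference promoters of this length, 52.4% hold a TTAA and 99.1% hold a TA, with a median of 10 TA. As few TA as in Ass1, or fewer, were found in 9.75%. Among other genes of the pathway, the promoter of Otc, ornithine transcarbamylase, holds 1 TTAA and 19 TA, that of Nags, which makes the activator of Cps1, holds 1 and 11, and that of Glud1, glutamate dehydrogenase, holds 0 and 1. The promoter is on another build than the sites, so no site was placed on it.

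For the same reason the windows were not divided into exons, introns and promoters. In the gene order of GRCm38.p6, Cps1 lies between Lancl1 and Erbb4, Ass1 between Hmcn2 and Fubp3, Asl between Gusb and Crcp, and Arg1 between Med23 and Akap7. Parts of these neighbours may lie in the windows, and a window is called by its urea cycle gene only as a name. Otc, Nags, Slc25a15, Slc25a13, Arg2, Glud1, Aldh18a1 and Oat were not described by sites.

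The density of sites was compared first, as sites per Mb for every 10000 nuclear sites of the liver, so that livers of different depth share a scale. PB density was higher than SB density at Cps1, Arg1 and Asl, and the difference at Ass1 did not pass the test. Cps1 was the densest of the 4 windows in PB and stood out from its surroundings in all 17 PB livers. In SB, the 4 windows lay much closer to each other and to their surroundings. Window and flank densities of every liver are plotted for both vectors.

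**Figure D1:**
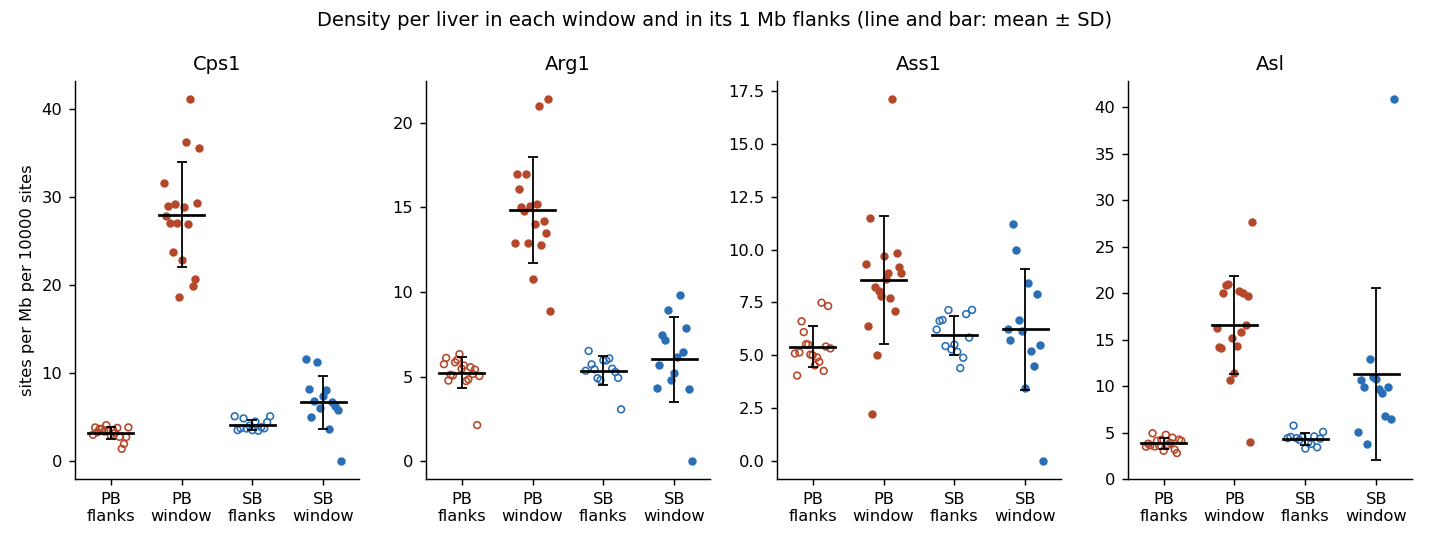
Insertion density per liver (sites per Mb per 10000 nuclear sites) in each window (filled) and in its flanks of 1 Mb on each side (open), for 17 PB livers (red) and 13 SB livers (blue). Lines and bars are mean ± SD, each panel has its own axis, and the PB window values of Cps1 lie above all its other values. The SB liver far above the others at Asl is liver 13, the smallest library.

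At Cps1, which supplies the entry step of the cycle, a PB liver held between 12 and 107 sites, with a median of 49. PB density ran from 18.7 to 41.1 with a median of 27.8, and averaged 28 ± 5.95 (SD, n = 17). SB livers held 0 to 30 sites, and their density ran from 0 to 11.6 with a median of 6.69, on average 6.70 ± 3.00 (SD, n = 13). The groups did not overlap, since the lowest PB liver lay above the highest SB liver. The share of all regions with such a separation is not given here. The PB minus SB difference was 1.94 on the log2 scale (SE 0.14, 95% interval 1.66 to 2.22, 3.83-fold; limma-voom with Benjamini-Hochberg adjustment over all regions, adjusted p = 1.5e-19).

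At Ass1, the enzyme that takes in aspartate, PB livers held 3 to 25 sites with a median of 11, and SB livers 0 to 19 with a median of 9. PB density ran from 2.25 to 17.1 with a median of 8.63 (mean 8.56 ± 3.02), and SB density from 0 to 11.2 with a median of 6.17 (mean 6.24 ± 2.86). The 2 groups overlapped over most of their range. The difference was 0.31 (SE 0.18, 1.24-fold) and did not pass (limma-voom adjusted p = 0.18), and its 95% interval, -0.05 to 0.66, includes both no difference and a PB excess.

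At Asl, which releases arginine and fumarate, PB livers held 1 to 38 sites with a median of 17, and SB livers 2 to 18 with a median of 12. PB density ran from 4.07 to 27.7 with a median of 16.3 (mean 16.6 ± 5.27), and SB density from 3.82 to 40.9 with a median of 9.97 (mean 11.3 ± 9.24). The groups overlapped: PB livers 7, 9 and 16 lay among the SB livers, and SB liver 13 lay above every PB liver. SB liver 13 reached 40.9 with 3 sites among its 4893, and without it SB density ended at 12.9 and averaged 8.88 ± 2.70 (SD, n = 12). The difference was 0.82 (SE 0.16, 1.77-fold, limma-voom adjusted p = 6.3e-05), and 0.85 without SB liver 13.

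At Arg1, the step that frees urea, PB livers held 3 to 36 sites with a median of 24, and SB livers 0 to 19 with a median of 9. PB density ran from 8.89 to 21.4 with a median of 14.8 (mean 14.9 ± 3.14), and SB density from 0 to 9.84 with a median of 6.19 (mean 6.02 ± 2.49). Only the lowest PB liver, number 17, fell below the highest SB liver. The difference was 1.19 (SE 0.15, 2.28-fold, limma-voom adjusted p = 1.4e-09).

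So 3 of the 4 windows were called higher in PB and none in SB, where 11.5% of the 12561 regions tested were called higher in PB and 23.3% higher in SB. The median region lay at -0.35, and relative to it the differences were 2.29 at Cps1, 0.65 at Ass1, 1.17 at Asl and 1.54 at Arg1. PB held 33.1% of all calls in this scaling and 47% with trimmed-mean (TMM) scaling, which moved the median region to -0.21. With TMM the 4 windows stood at 2.09, 0.46 (limma-voom adjusted p = 0.086), 0.92 and 1.34 in the same order.

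The calls at Asl and Arg1 did not hold once reused positions, those in several livers of a group on either strand, were left out. Without them the difference at Cps1 was 1.28 (limma-voom adjusted p = 1.3e-07) and the window kept its call. It was 0.45 at Asl (adjusted p = 0.21) and 0.38 at Arg1 (adjusted p = 0.29), which no longer passed, and -0.08 at Ass1 (adjusted p = 0.89). Over the genome, 28.7% of PB and 2.09% of SB records lay at a position and strand found in several livers of the group. The removal therefore takes far more sites from PB than from SB, and calls over the genome fell to 316 higher in PB and 265 higher in SB.

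Ranked by mean density among the 12561 regions, Cps1 was the 7th densest in PB, where the median region held 2.40 and the densest 32.1. Asl ranked 146, Arg1 268 and Ass1 1530. In SB, Cps1 ranked 1719, Ass1 2229 and Arg1 2500. Without SB liver 13, which had no site in these windows, they ranked 1187, 1688 and 1962. Asl ranked 27 in SB with liver 13 and 294 without it, so that rank is largely the value of 1 small library.

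The windows were then set against the 1 Mb on each side of them, which takes out density that the whole neighbourhood shares. In PB every window was denser than its flanks, by most at Cps1. In SB this held at Cps1 and Asl but did not pass at Ass1 and Arg1. The step into the Cps1 window is visible in the profile of mean densities.

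**Figure D2:**
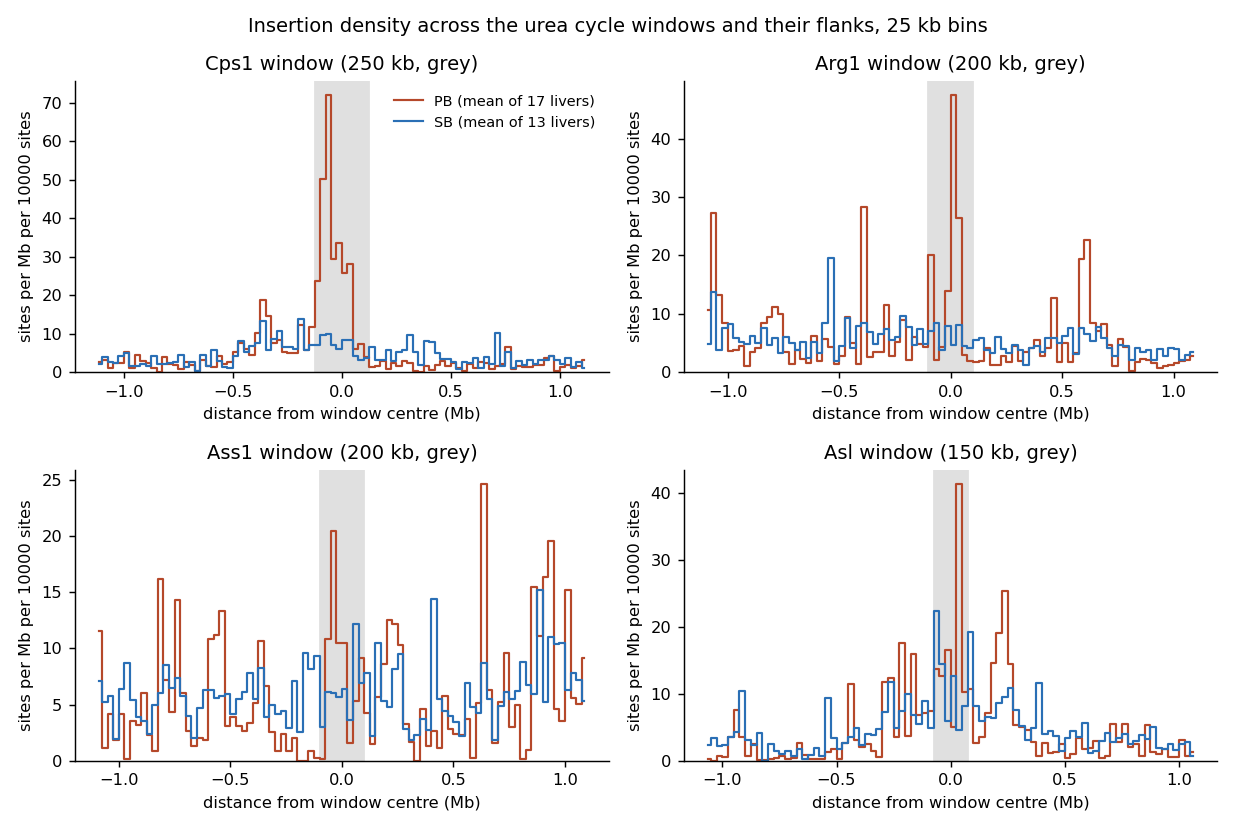
Mean insertion density (sites per Mb per 10000 nuclear sites, 25 kb bins) against distance from the window centre in Mb, for 17 PB livers (red) and 13 SB livers (blue), with the window in grey. Each panel has its own density axis, and PB rises inside the Cps1 window while the flanks of Ass1 hold PB bins about as dense as the window.

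The Cps1 flanks ran from 1.42 to 4.11 in PB livers with a median of 3.39, and from 3.47 to 5.11 in SB livers with a median of 3.86. Pooled over livers, the window was 8.09 times as dense as its flanks in PB and 1.78 times in SB, and it exceeded them in 17 of 17 PB and 12 of 13 SB livers. The window minus its flanks came to 24 sites per Mb per 10000 in PB (SE 0.934, limma adjusted p = 1.1e-62) and to 3.15 in SB (SE 1.06, adjusted p = 0.0088). Without reused positions the PB value at Cps1 was 13.4 (limma adjusted p = 1.0e-28) and still passed. PB and SB windows of Cps1 thus both passed, with the SB exception being liver 13, which had no site there. With flanks of 0.5 Mb the SB value was 2.09 (limma adjusted p = 0.11), and with equal weight for every liver 2.57 (adjusted p = 0.13). As a log2 ratio of window to flanks it was 0.82 (limma adjusted p = 4.4e-10) and passed. Whether the SB excess at Cps1 is called thus depends on the setting. The PB flanks of Cps1 were uneven, with 4.78 on the side of lower coordinates and 2.00 on the other, against 4.70 and 3.40 in SB.

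The Ass1 flanks ran from 4.05 to 7.49 in PB with a median of 5.14, and from 4.40 to 7.15 in SB with a median of 5.84. The pooled ratio of window to flanks was 1.57 in PB and 1.13 in SB, with the window higher in 15 of 17 and 7 of 13 livers. The difference was 3.01 in PB (SE 0.590, limma adjusted p = 1.8e-06) and 0.769 in SB (SE 0.672, adjusted p = 0.34). Without reused positions the PB value at Ass1 was 1.64 (limma adjusted p = 0.031), near the threshold. Ass1 had the smallest PB step of the 4 windows and the densest flanks among them in SB.

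The Asl flanks ran from 2.83 to 4.96 in PB with a median of 3.84, and from 3.31 to 5.79 in SB with a median of 4.44. The pooled ratio was 4.24 in PB and 2.15 in SB, with the window higher in 16 of 17 and 12 of 13 livers. The difference was 12.5 in PB (SE 0.828, limma adjusted p = 1.4e-33) and 4.89 in SB (SE 0.943, adjusted p = 4.1e-06). Asl was thus the window with the clearest SB step, and it lay above its flanks in nearly all livers of both groups.

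The Arg1 flanks ran from 2.14 to 6.33 in PB with a median of 5.42, and from 3.07 to 6.52 in SB with a median of 5.44. The pooled ratio was 2.76 in PB and 1.18 in SB, with the window higher in 17 of 17 and 7 of 13 livers. The difference was 9.49 in PB (SE 0.697, limma adjusted p = 3.0e-29) and 0.98 in SB (SE 0.794, adjusted p = 0.30). Without reused positions the PB value at Arg1 was 3.11 (limma adjusted p = 1.7e-04), the largest relative fall of the 4 windows. With flanks of 2 Mb the SB value at Arg1 was 1.92 and passed (limma adjusted p = 0.027).

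All 4 windows were therefore called above their flanks in PB, where 25.1% of the 12333 regions with flanks were, and 2 of 4 in SB, where 19.5% were. The step itself was tested between the vectors as well. It was larger in PB than in SB by 20.9 at Cps1 (SE 1.42, limma adjusted p = 3.8e-30), by 2.24 at Ass1 (SE 0.894, adjusted p = 0.040), by 7.59 at Asl (SE 1.25, adjusted p = 1.5e-07) and by 8.52 at Arg1 (SE 1.06, adjusted p = 5.2e-12). That makes 4 of 4 windows, against 12.1% of regions. The Ass1 value lay close to the threshold, and it did not pass in livers 1 to 12 alone (2.02, adjusted p = 0.072). With equal weight for every liver neither Ass1 (2.86, adjusted p = 0.054) nor Asl (5.74, adjusted p = 0.065) passed. In that setting SB liver 13 counts as much as any other, and the SB step at Asl was 6.98 (SE 1.73). With SB liver 13 left out of the weighted fit, the larger PB step at Asl was 7.75 (limma adjusted p = 2.7e-08). Without reused positions the larger PB step passed at Cps1 only, with 2.12 at Arg1 (adjusted p = 0.22), 0.847 at Ass1 (adjusted p = 0.68) and 3.74 at Asl (adjusted p = 0.083).

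The windows were next divided into 10 kb bins to see where inside them the sites lay. The densest bin held between 16.4% and 31.6% of a window's PB records. In SB the densest bin held 8.13% to 13.5% of the records, and in no window was the densest bin the same for both vectors. The share of other regions where the densest bins differ is not given here, so this does not set the windows apart.

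The densest PB bin of Cps1 was chr1:67150001-67160000, with 116 ± 44.1 sites per Mb per 10000 (SD, n = 17) and 139 records at 59 positions. It was hit in 17 of 17 PB livers. With reused positions left out, the bin of Cps1 that was then densest in PB, not necessarily the same one, averaged 40.8. High PB density was not limited to the named bin, since each of the 17 bins from 67110001 to 67280000 averaged between 13.9 and 116. The next bin, from 67280001 to 67290000, held no PB record, and those beyond it averaged 10.4 or less. The densest SB bin, chr1:67130001-67140000, averaged 15.3 ± 13.6 with 14 records in 9 of 13 livers.

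The densest PB bin of Ass1, chr2:31350001-31360000, averaged 27.6 ± 22.0 with 38 records in 14 of 17 livers, the lowest peak of the 4 windows. With reused positions left out, the bin of Ass1 that was then densest in PB, not necessarily the same one, averaged 16.9. The densest SB bin lay elsewhere in the window, at chr2:31460001-31470000, and averaged 17.6 ± 17.7 with 17 records in 8 of 13 livers. At Asl the densest PB bin was chr5:130060001-130070000, with 53 records in 16 of 17 livers. Its mean of 56.9 ± 79.3 exceeded its median of 33.8, since PB liver 17, a small library, reached 356. The densest SB bin of Asl, chr5:129960001-129970000, averaged 30.7 ± 53.0, and 16.2 without SB liver 13.

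At Arg1 the densest PB bin held the highest share of its window. The bin chr10:24820001-24830000 held 116 of the 367 PB records, or 31.6%, at 30 positions and in 17 of 17 livers, with a mean density of 93.8 ± 31.8. With reused positions left out, the bin of Arg1 that was then densest in PB, not necessarily the same one, averaged 29.5. A second PB bin of Arg1, chr10:24800001-24810000, averaged 56.3, while the last 6 bins of the window averaged 5.56 or less. The densest SB bin, chr10:24740001-24750000, averaged 11.7 ± 17.3 with 10 records in 6 of 13 livers. In every window the spread of the SB peak was near or above its mean, so SB peaks rest on few sites.

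As a description, the numbers of PB and SB records correlated across the 10 kb bins with Pearson's r of 0.244 and Spearman's rho of 0.353 at Cps1 (25 bins). These were 0.0406 and 0.254 at Ass1 (20 bins), -0.392 and -0.254 at Asl (15 bins) and 0.132 and 0.209 at Arg1 (20 bins). Bins of a window share their libraries and neighbourhood, are not independent, and hold few SB sites each.

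Tiles of 50 kb carry more sites and were tested over the genome. Of the 16 tiles in the windows, 7 were called higher in PB and 0 in SB, against 12.7% and 7.79% of the 24057 tiles tested (limma-voom, adjusted p under 0.05; 8130 of all tiles had an unadjusted p under 0.05). Cps1 held 4 of the 7 and each other window held 1. Their differences are plotted with and without reused positions.

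**Figure D3:**
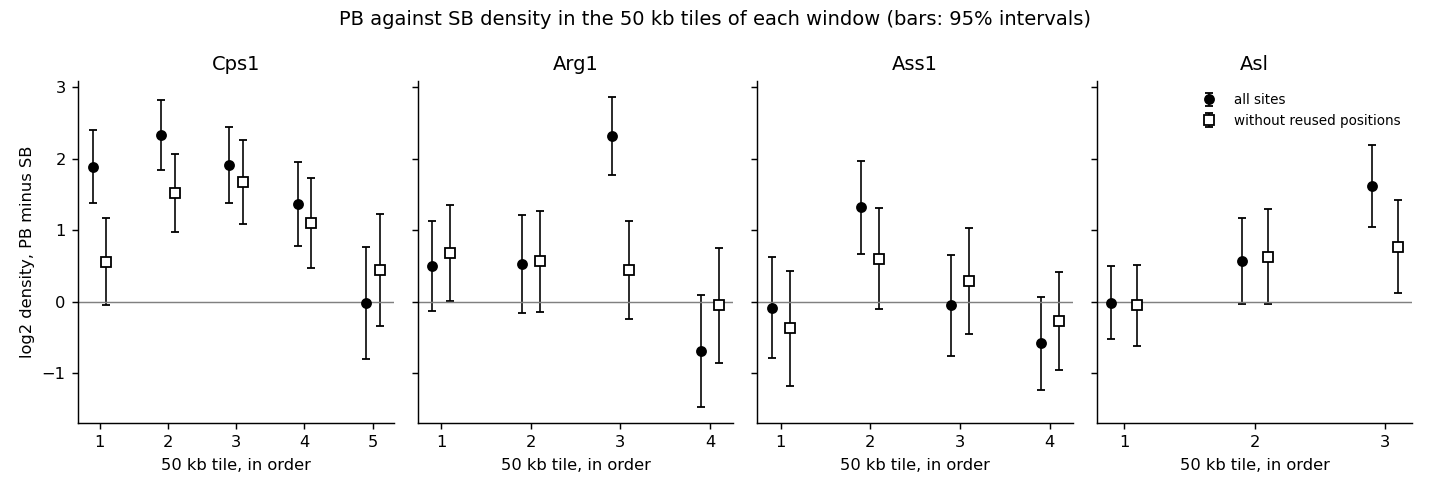
Log2 difference in density (PB minus SB) in the 50 kb tiles of each window, in order of coordinate, with all sites (filled) and without reused positions (open). Bars are approximate 95% intervals of the limma-voom fit, and the largest difference of Arg1, in its 3rd tile, is the one most reduced without reused positions.

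The first 4 tiles of Cps1 differed by 1.89, 2.33, 1.91 and 1.37 on the log2 scale, with PB densities of 36.8, 50.7, 29.7 and 17.1 against SB densities of 8.32, 8.41, 7.23 and 6.22. The last tile, with 5.51 in PB and 3.31 in SB, stood at -0.02 (limma-voom adjusted p = 0.98), so the PB excess covered the window except its end. At Arg1 the tile chr10:24800001-24850000 held 37.0 ± 9.53 in PB and 6.33 ± 5.40 in SB (log2 difference 2.32, limma-voom adjusted p = 1.3e-12), close to that of the highest Cps1 tile. The adjoining tile from 24850001 to 24900000 held 2.42 in PB and 4.25 in SB and did not pass (-0.69, adjusted p = 0.22).

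At Ass1 the tile chr2:31350001-31400000 differed by 1.32 (limma-voom adjusted p = 0.0011), with 15.5 ± 9.70 in PB and 5.84 ± 4.50 in SB. The window as a whole did not pass, and its other tiles stood between -0.58 and -0.05. At Asl the tile chr5:130050001-130100000 differed by 1.62 (limma-voom adjusted p = 2.0e-06), with 25.9 ± 16.7 in PB and 6.39 ± 4.81 in SB. Without reused positions 3 tiles kept their call, and all were in Cps1, at 1.52, 1.68 and 1.10.

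The same positions were then counted across livers, since PB enters the genome mainly at TTAA. For these shares a position was called reused when the same base and strand was found in at least 2 livers of the group. Where reused positions were left out of a fit or bin, strand was ignored. Both strands of a remaining position in a liver then counted as a single site. PB livers reused positions in all 4 windows, and SB livers almost never did. Over the genome, 13.2% of 1011357 PB positions and strands were reused and 1.03% of 939264 in SB.

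At Cps1, 147 of 624 PB positions and strands were reused (23.6%, 95% exact binomial interval 20.3% to 27.1%), against 6.96% in its flanks. At Ass1 31 of 151 were (20.5%, flanks 18.3%), at Asl 42 of 227 (18.5%, flanks 13.6%) and at Arg1 69 of 230 (30.0%, interval 24.2% to 36.4%, flanks 13.1%). Arg1 thus had the highest reused share in PB and Cps1 the lowest flank share, while at Ass1 the interval of 14.4% to 27.9% includes the flank share. A reused share rises with the number of sites in a region, so a dense window and sparse flanks are not on like terms. Such intervals cover counting error only, and the part of density in these shares was not tested.

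In SB, 1 of 170 positions and strands was reused at Cps1, 2 of 124 at Ass1, 3 of 127 at Asl and 0 of 123 at Arg1, where a count of 0 leaves an upper 95% exact limit of 2.95%. The SB shares at Cps1, Ass1 and Asl were 0.588%, 1.61% and 2.36%. They lay within counting error of the genome's 1.03%. Both strands of a position in the same liver were found 36 times at Cps1, 7 at Ass1, 11 at Asl and 26 at Arg1 in PB, and 0 times in SB. No flank or genome share is given for these counts, so they do not set the windows apart.

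With strand ignored, the Cps1 position found in most PB livers was chr1:67154730-67154733, in 12 of 17 livers, inside the densest bin. It carried 9 plus and 7 minus records. At Ass1 the leading position was chr2:31349614-31349617, in 10 of 17 livers with 6 plus and 6 minus records, just below the start of the densest bin. At Asl it was chr5:130062902-130062905, in 11 of 17 livers with 9 plus and 4 minus records, and at Arg1 chr10:24824114-24824117, in 12 of 17 livers with 9 plus and 5 minus records. Each of these 4 positions was hit on both strands and in most of the PB livers.

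Positions in at least 5 PB livers numbered 11 at Cps1, 5 at Ass1, 6 at Asl and 9 at Arg1, and no SB position in the windows was found in more than 2 livers. Shares of such positions in the flanks or the genome are not given here. The 10 most used positions held 10.9% of PB records at Cps1, 26.5% at Ass1, 21.2% at Asl and 27.0% at Arg1. Cps1 also held the most PB records, 845 against 204 to 367, and such a share can fall as records rise. The windows are therefore not on like terms in this share. Positions by number of livers are plotted for each window.

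**Figure D4:**
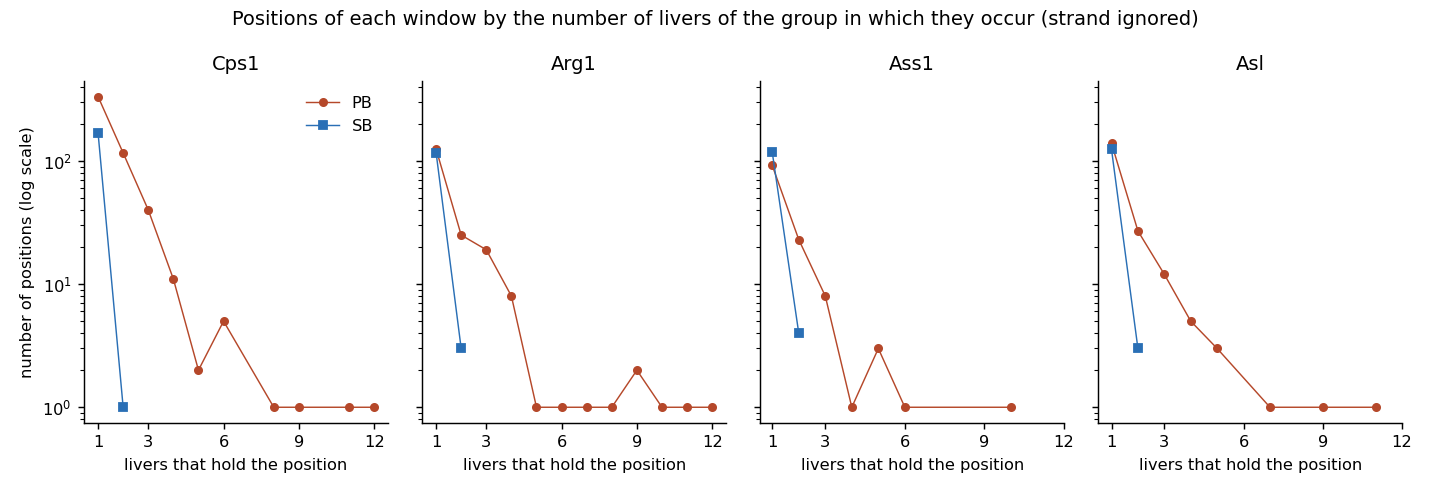
Number of distinct positions (strand ignored, log scale) against the number of livers of the group that hold them, for PB (red circles, 17 livers) and SB (blue squares, 13 livers) in each window. PB positions reach 12 livers at Cps1 and Arg1, 10 at Ass1 and 11 at Asl, and SB positions reach 2 in every window.

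PB and SB hit the same place in 2 positions at Cps1, 1 at Asl and 0 at Ass1 and Arg1, counting an SB site whose TA lies in the middle of a PB site's 4 bases. Over the genome 2111 positions were shared in this way, 0.232% of the PB positions. At 511 PB positions in Cps1 and 186 in Arg1, counts this small do not separate the windows from the genome.

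The strand of the sites was examined because a vector can enter in either orientation. Plus-strand records made up 52.0% at Cps1, 48.0% at Ass1, 51.7% at Asl and 55.9% at Arg1 in PB, against 49.1% over the genome. In SB they made up 42.1%, 52.4%, 56.9% and 55.3% in the same order, against 48.9%. The strand balance, plus minus minus sites per 10000 less the value the liver's overall plus share gives, passed in no window for either vector. The PB estimates were 0.39 at Cps1 (limma adjusted p = 0.99), -0.04 at Ass1 (0.99), 0.12 at Asl (0.99) and 0.40 at Arg1 (0.73), where the unadjusted p of Arg1 was 0.0033 with 12 livers toward plus and 4 toward minus. The SB estimates were -0.24 at Cps1 (limma adjusted p = 0.89), 0.09 at Ass1 (0.94), 0.22 at Asl (0.83) and 0.17 at Arg1 (0.88). Over the genome 0.00796% of the 12561 regions passed in PB and 0.111% in SB, with 559 and 906 regions at an unadjusted p under 0.05.

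Each site also carries a whole number in the deposited tables, called its support here. Its meaning is not given in the sources used here, and its smallest value was 3 in both groups. It was taken on the log2 scale relative to the mean of the same liver. Cps1 was the only window that passed, and only in PB. Its sites stood 0.20 above their livers' means (SE 0.04, limma adjusted p = 0.011), in 15 of 17 livers, where 0.0159% of the regions tested were called higher in PB. The median PB record at Cps1 had a support of 52, against 46 over the genome. The call was lost relative to the flanks (0.16, adjusted p = 0.28) and without reused positions (0.20, adjusted p = 0.53).

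Support in the other PB windows did not pass, at 0.03 for Ass1, -0.07 for Asl and 0.09 for Arg1. In SB the values were 0.08 at Cps1, 0.09 at Ass1, 0.03 at Asl and 0.15 at Arg1, and none passed (limma adjusted p 0.76 to 0.98). No region of the genome was called higher in SB (0% of 12561, with 994 regions at an unadjusted p under 0.05 in either direction). Support at the windows was therefore near that of the rest of each liver, with a small excess at Cps1 in PB.

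The best supported single record at Cps1 was on the minus strand at chr1:67141525-67141528 in PB liver 17, with a support of 377. It ranked 71 in its liver (top 0.421%), and its position was found in 6 livers. The best SB record of Cps1, with 217, lay at chr1:67157430-67157431 in SB liver 2. It ranked 106 (top 0.242%), a higher standing within its liver. At Ass1 the best record had a support of 269, in PB liver 13 at chr2:31391873-31391876, and ranked 190 (top 0.813%). At Asl it had 308, in SB liver 13 at chr5:129952452-129952453, and ranked 192 (top 3.92%), while the best PB record there had 247 and ranked 220 (top 0.313%), in liver 2 at chr5:130058084-130058087, a position found in 9 PB livers. Support differs in level between livers, so the rank within the liver is the measure to compare. At Arg1 the best record had 295, in PB liver 3 at chr10:24726839-24726842, and ranked 347 (top 0.318%). The best SB records of Ass1 and Arg1 had 187 (top 3.14%) and 214 (top 1.74%), both in SB liver 5. Records in the top 1% of their own liver numbered 5 of 845 at Cps1, 3 of 204 at Ass1, 6 of 302 at Asl and 5 of 367 at Arg1 in PB, and 2, 3, 0 and 0 in SB.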

How the data were processed

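Per the labels, sites came from SBE-seq of genomic DNA. The submitters' processing notes name cutadapt, BWA and GRCm39, without versions. Each deposited table gives chromosome, position, strand and a whole number whose meaning the authors' labels do not state (another unit, called support). Left out were records outside the nuclear chromosomes (16 PB, 14 SB) and the merged tables.

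The windows replaced the 200 kb tiles they overlap. Regions averaging 1 site or more per liver were fitted without a block in limma 3.58.1 (R 4.3.3; voom for density, weighted fits otherwise) with Benjamini-Hochberg adjustment over all regions and a threshold of 0.05. TMM factors came from a reimplementation. Descriptions used Python 3.11.15, numpy 2.4.6, pandas 2.3.3, scipy 1.17.1 and matplotlib 3.10.9. The fits were tested on simulated data. Support was not taken as a count of cells, since its meaning is not given in the sources used here. Alternatives covered livers 1 to 12, SB liver 13 left out, the liver number as a block, a support minimum of 10, reused positions, merging within 10 bp, scaling, weights, flank size and filters.

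The windows, lists and naming rule were chosen with earlier results of these data known. The rule names all 4 windows and, in each, the densest 10 kb bin, the position in most livers, the best supported record and each 50 kb tile past the threshold. Further bins and tiles only describe the profile's shape.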

Additional observations from a re-analysis of the deposited data

Results flagged for a closer look

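The step from flanks to window differed between the vectors at all 4 loci by a test of the difference itself. In sites per Mb per 10000 it was larger in PB by 20.9 at Cps1, 2.24 at Ass1, 7.59 at Asl and 8.52 at Arg1 (limma adjusted p = 3.8e-30, 0.040, 1.5e-07 and 5.2e-12). PB density exceeded the flanks in 17, 15, 16 and 17 of 17 livers, and SB density in 12, 7, 12 and 7 of 13. Without reused positions the difference passed at Cps1 only (adjusted p = 0.68 at Ass1, 0.083 at Asl and 0.22 at Arg1). With every liver weighted equally it did not pass at Ass1 (0.054) and Asl (0.065), nor at Ass1 in livers 1 to 12 (0.072). Causes were not tested.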

How the results depend on the processing

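Of 235 alternative values, 210 kept their direction and side of the threshold, or moved by less than the spread, and the PB step from flanks to window kept direction and call in all 36. Its size fell without reused positions, to 13.4 at Cps1, 1.64 at Ass1, 8.60 at Asl and 3.11 at Arg1. Leaving out reused positions changed most: density differences became 0.38 at Arg1, 0.45 at Asl and -0.08 at Ass1, and the larger PB step 2.12, 3.74 and 0.847. It also gave 3 called 50 kb tiles, densest PB bins of 40.8 at Cps1 and 29.5 at Arg1, PB strand balances of 0.02 at Ass1 and -0.24 at Asl, and PB support of 0.20 at Cps1 and -0.10 at Ass1. Relative to flanks, PB support was 0.16 at Cps1 and -0.03 at Ass1. The SB step was 2.09 (flanks of 0.5 Mb) and 2.57 (equal weights) at Cps1 and 1.92 (flanks of 2 Mb) at Arg1. The larger PB step at Ass1 was 2.02 in livers 1 to 12, 2.86 with equal weights (adjusted p = 0.054) and 0.45 as a log2 ratio (adjusted p = 0.050), and at Asl 5.74 with equal weights (adjusted p = 0.065). With strand ignored, reused PB shares were 34.8% at Cps1, 28.7% at Ass1 and 26.5% at Asl. Leaving out reused positions removes more PB than SB sites, since PB livers shared more positions, and causes were not tested. Small libraries limit the depth in both groups. SB liver 13, with 4893 nuclear sites, had 0 sites in 3 windows, and PB livers 13 to 17 held 16364 to 40598 nuclear sites each.

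The liver numbers are shared by 13 pairs, of which 1 correlated above 0.1 (range -0.00509 to 0.173), so they were not taken to pair the livers, and 2 PB livers correlated best with their own number. With the replicate block the density differences were 1.92, 0.29, 0.74 and 1.16 for Cps1, Ass1, Asl and Arg1, and no window changed its call. The Arg1 tile from 24850001 was then called higher in SB (-1.02, limma-voom adjusted p = 0.042).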
